A study of Mus musculus with 12 samples.

Results

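A set of 10 genes of YAP and TAZ signalling was followed through the deposited expression table of superficial zone (SFZ) and deep zone (DZ) chondrocytes of 5-day-old mice. They were found by their symbols, and each of the 10 names matched 1 of the 17536 rows. The table held 12 libraries, with 3 in each combination of zone and genotype. All 12 are labelled C57BL/6, and the study's methods give a C57BL/6J background. R3-Cntl mice were Runx3 fl/fl, and R3-cKO mice carried Col2a1-Cre in addition to Runx3 fl/fl. Both groups thus carried the floxed Runx3 allele and only R3-cKO carried Cre, which the Col2a1 promoter drives in chondrocytes and their precursors. Per the study's methods, SFZ cells came off the cartilage in a first enzyme digestion, DZ cells came from the residual epiphyseal cartilage, and cells were grown as monolayers. Vgll3 was picked because it was higher in the DZ libraries labelled R3-cKO, so its values in DZ are given below as a description without a test. The other members were taken as genes of the pathway.

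YAP (Yap1) and TAZ (Wwtr1) are transcriptional coactivators without a DNA-binding domain of their own. In the nucleus they bind the TEAD factors (Tead1 to Tead4), which recognise the sequence CATTCC on DNA, while Vgll proteins bind the same TEAD surface and compete with them. The Hippo kinases, among them Lats2, phosphorylate YAP and TAZ and hold them in the cytoplasm. In cartilage the pathway is known for responding to stiffness, cell shape and loading, and YAP activity is known to change as chondrocytes are cultured on plastic.

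The stretches before the start sites of 4 members are shown because TEAD factors are the DNA-binding partners of the whole set. They are the 250 bases before the RefSeq start on the strand of the gene, read from the RefSeq GRCm38.p6 promoter table and placed by an exact and single match on mm9, the build of the study. Capitals mark the TEAD sequence CATTCC or its reverse complement GGAATG and, in Ankrd1 alone, the Runx sequence TGTGGT. The Vgll3 stretch is chr16:65815184-65815433 on the plus strand, the Yap1 stretch is chr9:8004597-8004846, the Wwtr1 stretch is chr3:57379833-57380082 and the Ankrd1 stretch is chr19:36194335-36194584, the last 3 on the minus strand.
Vgll3: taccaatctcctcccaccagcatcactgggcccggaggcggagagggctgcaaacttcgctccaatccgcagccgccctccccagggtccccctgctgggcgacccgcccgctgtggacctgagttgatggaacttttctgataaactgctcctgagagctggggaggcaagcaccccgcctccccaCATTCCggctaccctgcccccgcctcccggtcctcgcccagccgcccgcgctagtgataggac
Yap1: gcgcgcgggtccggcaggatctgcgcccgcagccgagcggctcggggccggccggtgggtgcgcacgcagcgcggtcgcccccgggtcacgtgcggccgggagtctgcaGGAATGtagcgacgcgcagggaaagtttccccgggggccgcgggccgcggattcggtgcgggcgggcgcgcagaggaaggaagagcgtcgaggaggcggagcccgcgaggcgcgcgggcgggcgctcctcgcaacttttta
Wwtr1: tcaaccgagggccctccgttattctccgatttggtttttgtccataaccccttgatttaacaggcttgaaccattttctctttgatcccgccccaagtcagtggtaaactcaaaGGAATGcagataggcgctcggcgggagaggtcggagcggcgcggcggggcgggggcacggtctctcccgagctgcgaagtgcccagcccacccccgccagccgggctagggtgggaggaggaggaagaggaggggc
Ankrd1: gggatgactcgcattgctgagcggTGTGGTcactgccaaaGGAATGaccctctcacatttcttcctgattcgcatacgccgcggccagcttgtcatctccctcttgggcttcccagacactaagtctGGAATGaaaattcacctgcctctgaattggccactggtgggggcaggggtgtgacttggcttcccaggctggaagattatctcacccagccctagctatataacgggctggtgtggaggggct

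The single TEAD match of Vgll3 began 63 bases before the start, on the strand of the gene, and that RefSeq start lies 444 bases before the gene start in GENCODE. Yap1 held 1 match 141 bases before its start and Wwtr1 held 1 at 136 bases, both on the opposite strand. Ankrd1 held 2 on the opposite strand, the farther at 210 bases. Windows of 300 bases (250 before and 50 after the start) were given for 8 of the 10 members, in 12 windows. Of these, 7 members held CATTCC or GGAATG in at least 1 window, Tead2 being the one without. Counted by window, 9 of the 12 held these letters, some of them overlapping windows of 1 gene, and 14.7% of 32851 RefSeq mouse promoters of that length did. The Runx sequences TGTGGT or TGCGGT, on either strand, were in 22.4% of all promoters and in 2 of the 12 windows, those of Amotl2 at 106 bases and of Ankrd1 at 226 bases before the start. A match of letters is a description and shows no binding.

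Values were read as FPKM, a unit that was inferred as given in the processing section. FPKM divide the fragments of a gene by its length and by the size of the library, so levels of different genes can be compared if that unit holds. Differences are log2(FPKM + 1) in limma with Benjamini-Hochberg adjustment over all genes tested, and a gene was tested where 3 or more of the libraries compared reached 1 FPKM. Depth is unknown because no counts were used, so the spread between the 3 libraries is the only error. The study's supplement describes SFZ and DZ cells of 3 individual littermate mice per genotype, while the labels do not tie a library number to a mouse. The labels of zone were checked on markers. The summed FPKM of 10 chondrocyte genes, led by Col2a1, was 5242 to 15474 in SFZ and 16199 to 36072 in DZ libraries. The sum of 9 fibroblast and tendon genes, led by Col1a1, was 3889 to 11051 in SFZ and 119 to 2156 in DZ libraries, and that of 5 macrophage genes was 6.23 to 155 and 3.3 to 19.8. The sum of 12 skeletal muscle genes was 180 in R3-Cntl SFZ library 2 and 4.98 to 19.7 in the other 11. The 4 Y-linked genes summed to 12.1 or more in 8 SFZ and DZ libraries and to 0.06 or less in the 4 others, which were libraries 2 and 3 of R3-cKO in each zone. Sex, as read from these genes, was thus partly confounded with genotype in each zone, and its part in the genotype differences was not tested. Runx3 itself was at 10.73, 5.98 and 6.65 FPKM in R3-Cntl SFZ, at 11.83, 9.07 and 3.42 in R3-cKO SFZ, at 12.67, 12.65 and 7.66 in R3-Cntl DZ and at 15.95, 12.66 and 8.14 in R3-cKO DZ. Runx3 was thus not lower in DZ libraries labelled R3-cKO (log2 difference 0.13, SE 0.28, adjusted p = 0.999), and in SFZ it differed by -0.04 (SE 0.43, adjusted p = 1.0). A value per gene does not show whether a floxed exon was lost, so genotypes are given below as labelled. Prg4, which encodes the joint lubricant lubricin, was added after its values were seen. It was at 22.24, 8.38 and 7.13 FPKM in R3-Cntl SFZ and at 6.95, 2.47 and 2.13 in R3-cKO SFZ (limma, -1.45, SE 0.52, unadjusted p = 0.0307, adjusted p = 1.0). In DZ it was at 1.39, 1.22 and 1.47 in R3-Cntl and at 5.72, 1.32 and 2.14 in R3-cKO. The genotypes overlapped there and the difference had the opposite sign (limma, 0.63, SE 0.38, adjusted p = 0.999).

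Both coactivators were abundant in every library. Amotl2 had the highest mean of the 10 members over the 12 libraries (75.9 FPKM), followed by Wwtr1 (43.4), Yap1 (30.6), Lats2 (22.3), Tead1 (18.5) and Vgll3 (14.3). Tead2 (8.26), Tead3 (7.62) and Tead4 (4.37) were lower and Ankrd1 (0.413) was lowest. The order was the same in SFZ and DZ means, except that Tead2 and Tead3 changed places. Neighbours in this order did not all separate. Tead2 ranged from 1.84 to 15.84 and Tead3 from 3.77 to 11.16, and the ranges of Tead1 (9.98 to 25.57), Vgll3 (0.52 to 31.63) and Lats2 (13.61 to 29.57) overlapped, whereas every Wwtr1 value (37.24 to 48.75) was above every Yap1 value (23.1 to 34.34).

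**Figure D1:**
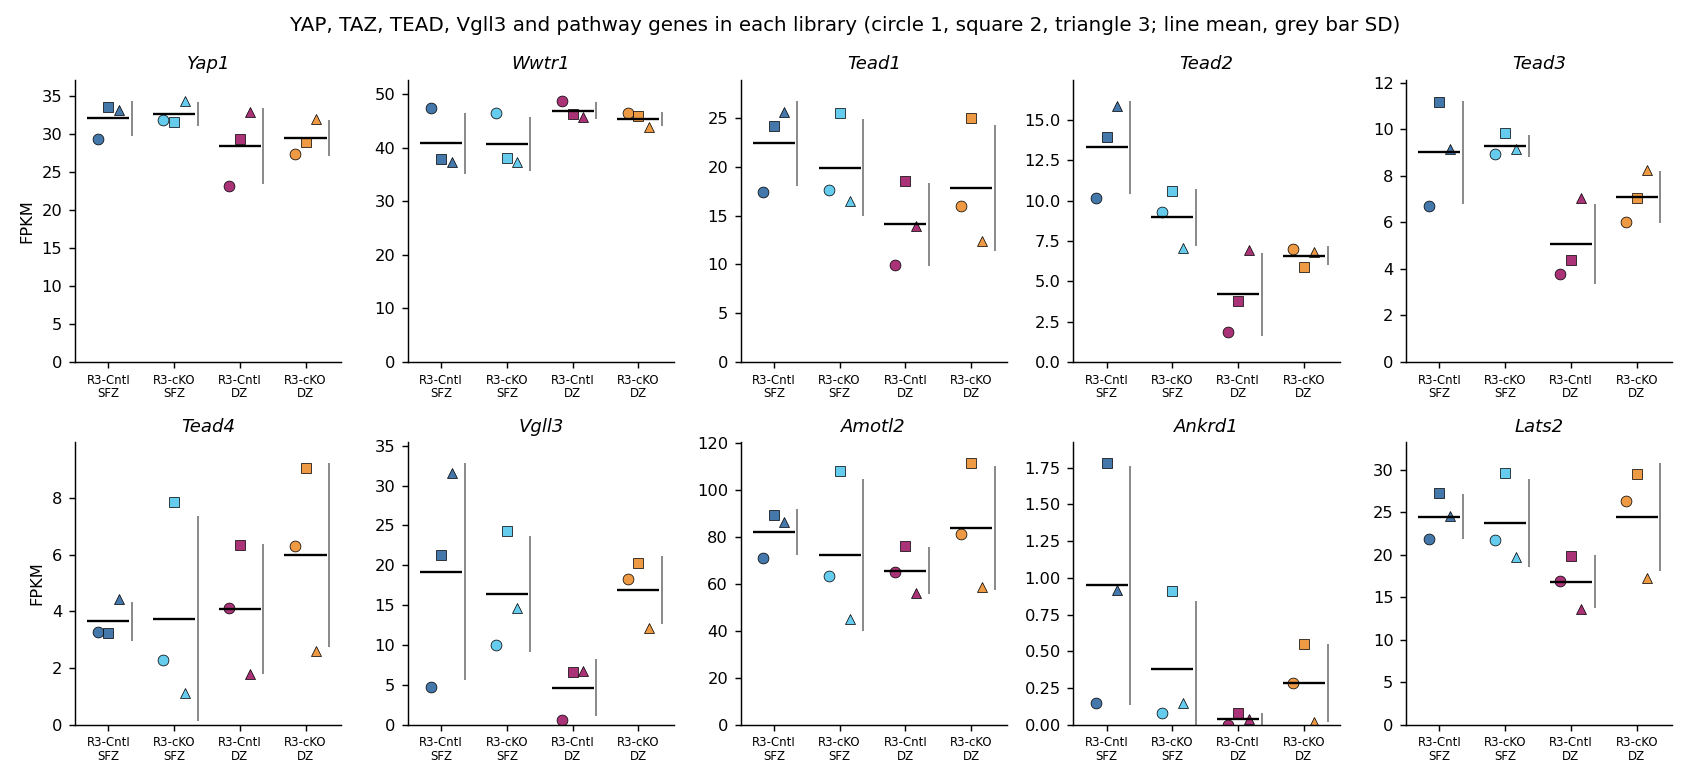
FPKM (vertical axes, from 0) of each member in each of the 12 libraries, by zone and genotype; symbols give the library number, black lines the mean and grey bars the SD of 3 libraries. The 6 DZ libraries lie at 7.02 or less for Tead2 and the 6 SFZ libraries at 7.08 or more, and Vgll3 is lowest in R3-Cntl DZ.

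Yap1 (Entrez gene 22601, mm9 chr9:7931999-8004596, minus strand) was at 29.32, 33.52 and 33.16 FPKM in R3-Cntl SFZ and at 31.85, 31.54 and 34.34 in R3-cKO SFZ. In DZ it was at 23.10, 29.31 and 32.91 in R3-Cntl and at 27.29, 28.92 and 31.94 in R3-cKO. The zones overlapped, with R3-Cntl DZ library 1 below every other value. The DZ minus SFZ difference was -0.16 (SE 0.09, adjusted p = 0.197). Genotype differences were 0.03 in SFZ (95% interval -0.22 to 0.28) and 0.06 in DZ (-0.32 to 0.43), neither past the threshold.

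Wwtr1, which encodes TAZ (Entrez gene 97064, mm9 chr3:57259571-57379832, minus strand), was at 47.36, 37.79 and 37.24 FPKM in R3-Cntl SFZ and at 46.46, 38.11 and 37.32 in R3-cKO SFZ. In DZ it was at 48.75, 46.33 and 45.77 in R3-Cntl and at 46.35, 45.90 and 43.92 in R3-cKO. Library 1 of each SFZ genotype lay within the DZ range, and the other 4 SFZ libraries lay below all of DZ. The zone difference was 0.18 (SE 0.08, adjusted p = 0.113) without further scaling. It passed the threshold once the zones were rescaled, at 0.34 (adjusted p = 0.0132) with median-of-ratios size factors and 0.29 (adjusted p = 0.0415) with quantile normalization. The median of all 11765 genes was itself -0.14 between the zones on the deposited scale, and Wwtr1 was 0.33 above that median. Between genotypes Wwtr1 differed by -0.05 in DZ (95% interval -0.29 to 0.19) and by 0.00 in SFZ (-0.36 to 0.35).

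The mean ratio of Wwtr1 to Yap1 was higher in DZ than in SFZ libraries, with a p-value close to the threshold. The ratio of their FPKM, which does not depend on scaling between libraries, was 1.62, 1.13 and 1.12 in R3-Cntl SFZ and 1.46, 1.21 and 1.09 in R3-cKO SFZ. In DZ it was 2.11, 1.58 and 1.39 in R3-Cntl and 1.7, 1.59 and 1.38 in R3-cKO. Library 1 had the highest ratio in all 4 groups, and the zones overlapped. The mean log2 ratio was 0.328 ± 0.235 (SD, n = 6) in SFZ and 0.684 ± 0.226 in DZ, a difference of 0.36 (exact two-sided permutation of zone within genotype, p = 0.04, 400 arrangements). This p-value was not adjusted for the tests of the Tead shares below. It rose above the threshold, so that the difference was no longer called, when any of several single libraries was left out. Exact p was 0.085 when R3-Cntl SFZ library 2 or 3 or R3-Cntl DZ library 1 was left out, and 0.065 when R3-cKO SFZ library 2 or 3 was. It was 0.06 without R3-cKO DZ library 1 and 0.055 without library 2 of either DZ genotype, with the difference at 0.27 to 0.44 throughout.

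The TEAD factors, which carry YAP and TAZ to DNA, were led by Tead1 in every library. On the deposited scale Tead2 and Tead3 were called lower in DZ than in SFZ cells, and other scalings lost both calls. Tead2 (Entrez gene 21677, mm9 chr7:52471123-52489005, plus strand) was at 10.16, 13.91 and 15.84 FPKM in R3-Cntl SFZ and at 9.26, 10.57 and 7.08 in R3-cKO SFZ. In DZ it was at 1.84, 3.80 and 6.92 in R3-Cntl and at 7.02, 5.90 and 6.82 in R3-cKO. Every DZ value was below every SFZ value, by a margin of 7.02 against 7.08, which 9.71% of all genes tested also showed in this direction. Tead2 fell by 0.97 on the log2 scale (SE 0.28, adjusted p = 0.027), a 1.96-fold difference of FPKM + 1.

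Tead3 (Entrez gene 21678, mm9 chr17:28468616-28487750, minus strand) was at 6.70, 11.16 and 9.16 FPKM in R3-Cntl SFZ and at 8.93, 9.84 and 9.14 in R3-cKO SFZ. In DZ it was at 3.77, 4.38 and 7.03 in R3-Cntl and at 6.04, 7.03 and 8.27 in R3-cKO. R3-Cntl SFZ library 1 lay inside the DZ range and the other 5 SFZ libraries lay above it. Tead3 fell by 0.54 (SE 0.15, adjusted p = 0.0271), a 1.46-fold difference on the same scale. These 2 were the calls among the 8 members with a zone test, both lower in DZ, beside 23.2% of all 11765 genes called. Of those genes 18.9% were called lower and 4.3% higher, so that 2 of 8 members was near the share over all genes.

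The zone calls of Tead2 and Tead3 lay close to the threshold, and were lost under another scaling and with single libraries left out. With size factors, Tead2 was at -0.83 (adjusted p = 0.0539) and Tead3 at -0.40 (adjusted p = 0.0947), and the calls over all genes turned from 506 higher and 2219 lower to 1053 higher and 1088 lower. Tead2 missed the threshold without R3-Cntl SFZ library 2 (adjusted p = 0.0689), R3-Cntl SFZ library 3 (0.0548) or R3-Cntl DZ library 2 (0.0592). Tead3 missed it without the same 3 libraries (0.0644, 0.054 and 0.0608), without R3-Cntl DZ library 1 (0.0562) and without R3-cKO DZ library 1 (0.0575). The differences themselves moved little there, at -0.91 to -0.85 for Tead2 and -0.52 to -0.45 for Tead3. Without R3-Cntl SFZ library 2, the one with muscle transcripts, they were -0.89 and -0.45. The fibroblast and tendon sum given above differed between the zones in the same direction as both genes, and its part in the result was not tested. Fewer cells of a type and less RNA per cell cannot be told apart in such bulk libraries.

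Tead1 (Entrez gene 21676, mm9 chr7:119822832-120050319, plus strand) was at 17.37, 24.15 and 25.57 FPKM in R3-Cntl SFZ and at 17.62, 25.56 and 16.48 in R3-cKO SFZ. In DZ it was at 9.98, 18.50 and 13.88 in R3-Cntl and at 16.02, 24.95 and 12.42 in R3-cKO. The zones overlapped, with the 4 lowest values in DZ. The zone difference was -0.42 (SE 0.20, adjusted p = 0.163), and with the library number as a block it passed the threshold (adjusted p = 0.0303). Without R3-cKO DZ library 2 the difference was -0.56 (adjusted p = 0.0444).

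Tead4 (Entrez gene 21679, mm9 chr6:128174306-128250841, minus strand) spread widely within groups. It was at 3.26, 3.25 and 4.45 FPKM in R3-Cntl SFZ, at 2.3, 7.86 and 1.1 in R3-cKO SFZ, at 4.14, 6.35 and 1.78 in R3-Cntl DZ and at 6.30, 9.07 and 2.59 in R3-cKO DZ. Library 2 was highest and library 3 lowest in 3 of the 4 groups. The zone difference was 0.37 (95% interval -0.47 to 1.2, adjusted p = 0.519), and 0.13 to 0.59 with 1 library left out.

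The summed FPKM of the 4 TEAD genes was 33.8 to 55 in SFZ and 19.7 to 47 in DZ libraries. Within a library Tead1 held 46.9% ± 1.05 (SD, n = 6) of that sum in SFZ and 48.9% ± 5.42 in DZ. Tead2 held 24.5% ± 3.62 in SFZ and 16.5% ± 6.13 in DZ, a difference of -8.0 percentage points. Tead4 held 7.81% ± 3.83 in SFZ and 15.3% ± 6.34 in DZ, a difference of 7.51 points. Tead3 held 20.8% ± 3.96 and 19.3% ± 5.42. Exact two-sided permutation of zone within genotype gave p = 0.025 for Tead2 and p = 0.045 for Tead4, and both were at 0.09 after adjustment over the 4 shares. The exact p was 0.425 for Tead1 and 0.585 for Tead3. The make-up of the family was thus not shown to differ between the zones at the adjusted threshold.

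**Figure D2:**
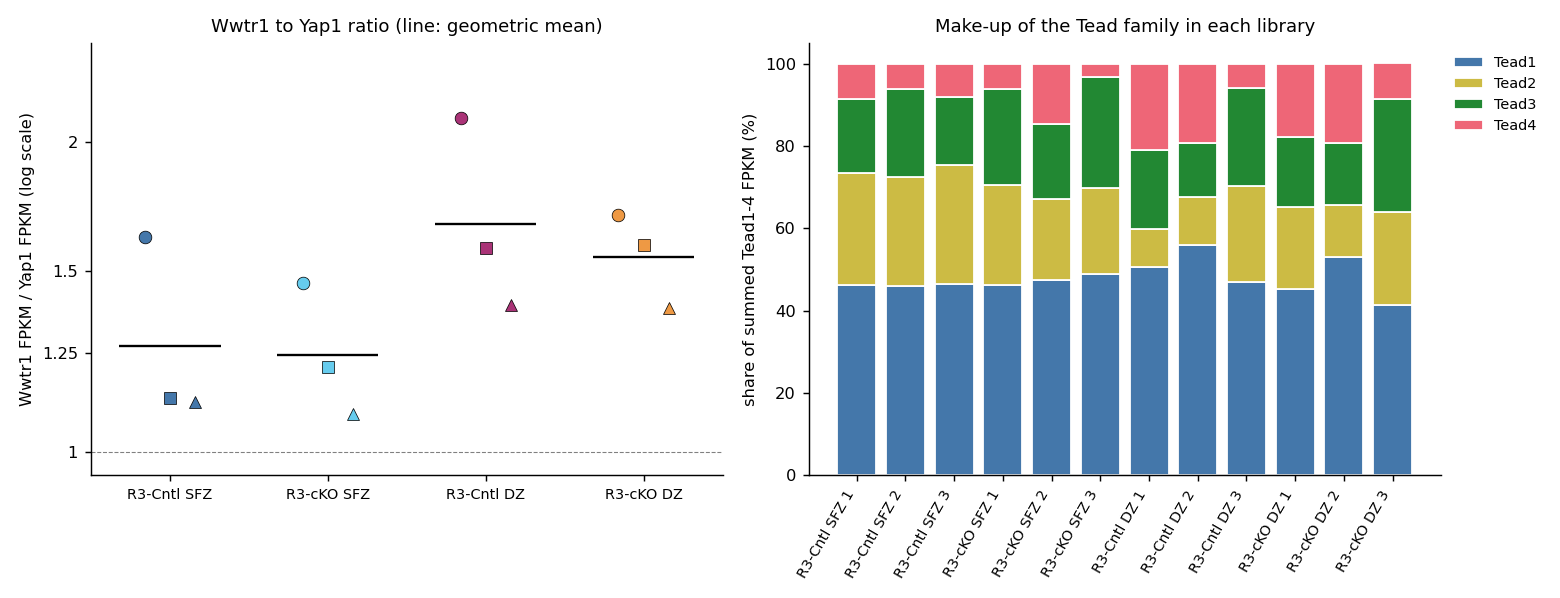
Left, the ratio of Wwtr1 to Yap1 FPKM (log axis) in each library by group, with symbols for the library number and lines for the geometric mean; right, the share (%) of the summed Tead1 to Tead4 FPKM held by each gene in each library. The ratio lies between 1.09 and 1.62 in SFZ and between 1.38 and 2.11 in DZ libraries, and Tead1 takes the biggest share in all 12.

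Between genotypes, no TEAD gene passed the threshold in either zone, as no gene of the table did. In SFZ, limma called 0 of 11537 genes at an adjusted p under 0.05 and 34 at an unadjusted p under 0.05, or 0.295%. The latter count was 12 to 1204 when 1 library was left out, the highest without R3-cKO SFZ library 2. Tead2 was the 1 member among the 34, at -0.52 in libraries labelled R3-cKO (SE 0.21, unadjusted p = 0.0451, adjusted p = 1.0). In DZ, limma without a block called 0 of 11091 genes and 404 at an unadjusted p under 0.05, or 3.64%, among them 0 of the 8 members with a test. Tead2 was at 0.67 there (SE 0.35, adjusted p = 0.999), Tead3 at 0.45, Tead4 at 0.44 and Tead1 at 0.30. With 1 library left out these values ran from 0.29 to 1.03 for Tead2, 0.29 to 0.67 for Tead3, 0.06 to 0.86 for Tead4 and 0.04 to 0.51 for Tead1. With the library number as a block, 1830 genes of DZ were at an unadjusted p under 0.05 and again 0 passed after adjustment. The adjusted p in that fit was 0.175 for Tead4, 0.206 for Tead3, 0.333 for Tead2 and 0.404 for Tead1. Tead3 and Tead4 were higher in R3-cKO DZ for all 3 library numbers, and Tead1 and Tead2 for 2 of the 3.

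The genotype difference of Tead2 was opposite in sign in the zones. Its means were 13.3 and 8.97 FPKM in R3-Cntl and R3-cKO SFZ and 4.19 and 6.58 in R3-Cntl and R3-cKO DZ. The interaction term, which tests that difference, was 1.18 (SE 0.44, unadjusted p = 0.0229, adjusted p = 0.999) over all 12 libraries. For this term limma called 0 of 11765 genes, and 99, or 0.841%, were at an unadjusted p under 0.05, Tead2 being the 1 among the 8 members tested. It was 0.81 without R3-Cntl DZ library 1, where Tead2 was lowest. The zone difference of Tead2 was -1.57 in R3-Cntl libraries alone (adjusted p = 0.0753) and -0.38 in R3-cKO libraries alone (adjusted p = 0.367).

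Vgll3, a Vestigial-like protein that binds TEAD factors, had the widest range on the log2 scale of the 9 members that passed the filter. It lies at mm9 chr16:65815878-65863302 on the plus strand (Entrez gene 73569). In R3-Cntl DZ it was at 0.52, 6.66 and 6.76 FPKM, and in R3-cKO DZ at 18.23, 20.25 and 12.10, the values for which it was picked. The libraries labelled R3-cKO were all higher, as 5.26% of the genes tested in DZ were, with means of 16.9 ± 4.24 against 4.65 ± 3.57 (SD, n = 3). In SFZ it was at 4.74, 21.31 and 31.63 in R3-Cntl and at 10.03, 24.34 and 14.69 in R3-cKO, and the genotypes overlapped. R3-Cntl DZ was thus the low group, and the R3-cKO DZ values lay inside the range of the SFZ libraries.

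The log2 difference of Vgll3 between genotypes in DZ was 1.96, with 1.18 when R3-Cntl DZ library 1 was left out and 2.36 when library 3 of that group was. Ratios of R3-cKO to R3-Cntl DZ libraries of the same number were 35.1, 3.04 and 1.79. The first rests on the value of 0.52, and Yap1, Tead1, Tead2 and Tead3 also had their lowest value in that library. In SFZ, which the choice of Vgll3 did not use, the difference was 0.02 (SE 0.68, 95% interval -1.63 to 1.67, adjusted p = 1.0). The sign there was not stable, at -0.72 without R3-Cntl SFZ library 1 and 0.53 without library 3 of that group. DZ minus SFZ was -0.87 over both genotypes, with -1.11 without R3-cKO SFZ library 1 and -0.42 without R3-Cntl DZ library 1. The difference of the genotype effects, DZ minus SFZ, was 1.94, with 1.16 without R3-Cntl DZ library 1 and 2.68 without R3-Cntl SFZ library 1. These DZ values describe the pattern that chose the gene.

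Other transcripts were set beside the DZ values of Vgll3. The fibroblast and tendon sum was 119, 610 and 2156 FPKM in R3-Cntl DZ libraries 1 to 3 and 223, 594 and 1503 in R3-cKO DZ, higher in R3-cKO for library 1 and lower for libraries 2 and 3, while Vgll3 was higher for all 3. The chondrocyte sum was 36072, 22799 and 29680 in R3-Cntl DZ and 24214, 16199 and 29202 in R3-cKO DZ, lower in the libraries labelled R3-cKO for each number. The sum of 4 osteoblast genes was 85.6, 86.4 and 204 in R3-Cntl DZ and 43.6, 25.0 and 62.4 in R3-cKO DZ. In SFZ that sum was 83.9, 194 and 85.8 in R3-Cntl and 64.8, 49.8 and 43.0 in R3-cKO. Vgll3 overlapped between the genotypes of SFZ. The sum of 5 macrophage genes was 7.03, 5.95 and 19.8 in R3-Cntl DZ and 5.68, 3.49 and 3.3 in R3-cKO DZ. The part of these sums in the Vgll3 difference was not tested. The Y-linked sum was 29.6 in R3-cKO DZ library 1, where Vgll3 was at 18.23, and 0.01 and 0.03 in libraries 2 and 3, where Vgll3 was at 20.25 and 12.10. It was 40.0, 16.8 and 17.0 in R3-Cntl DZ, and the part of sex in the Vgll3 difference was not tested.

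**Figure D3:**
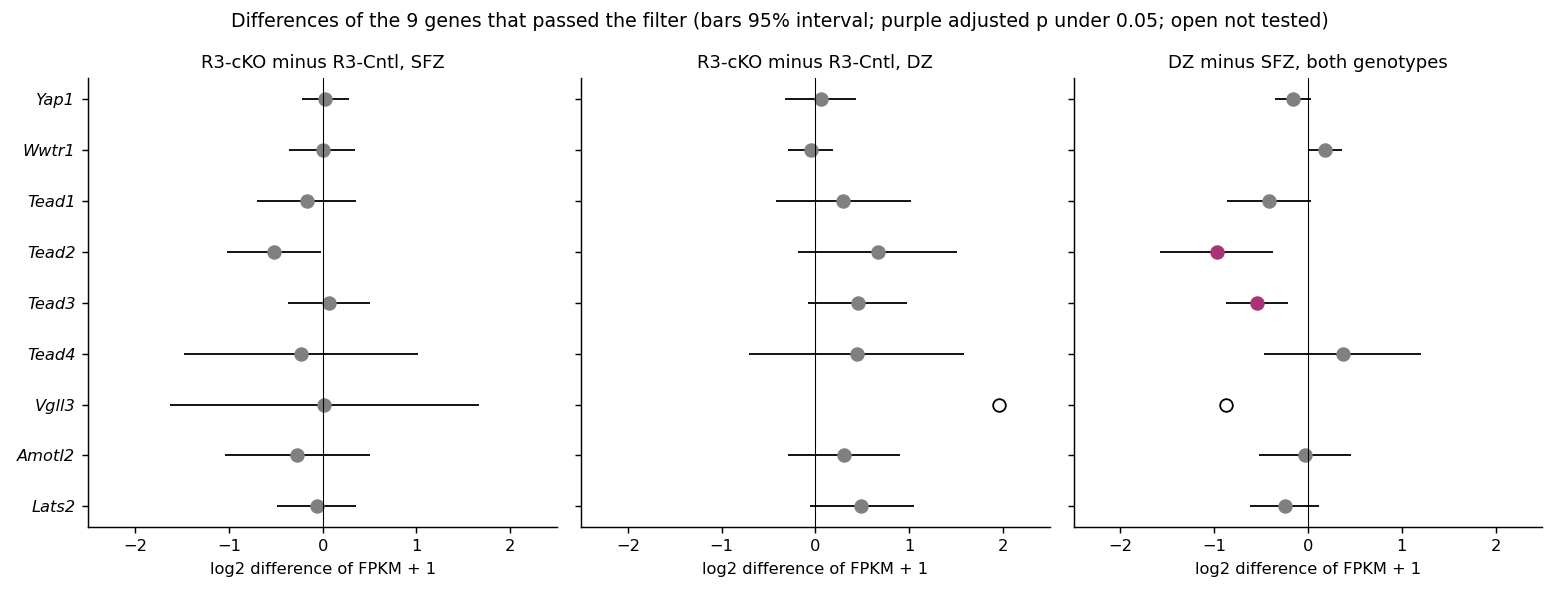
log2 differences of FPKM + 1 (horizontal axes) for the 9 members that passed the filter, between genotypes in SFZ, between genotypes in DZ and between zones; bars are 95% intervals and purple marks an adjusted p under 0.05. Tead2 (-0.97) and Tead3 (-0.54) are the purple points, both for DZ minus SFZ, and Vgll3 is drawn open and without a bar where its DZ values chose it.

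Among the other Vestigial-like genes, which also bind TEAD factors, Vgll1 was listed at 0 in 11 libraries and at 0.03 in R3-Cntl DZ library 1. Vgll2, known from skeletal muscle, reached 0.75 in R3-Cntl SFZ library 2 and 0.65 in R3-Cntl SFZ library 3 and was at 0.33 or less elsewhere. Vgll4, which represses TEAD-dependent transcription, was at 9.28 to 17.86 FPKM in all 12 libraries. Its genotype differences were 0.05 in SFZ and 0.17 in DZ, with adjusted p of 1.0 and 0.999. Vgll3 and Vgll4 were therefore the Vgll genes that exceeded 1 FPKM in any library.

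The 3 genes whose values over the 12 libraries lay nearest to those of Vgll3 were Thbd, Cyp1b1 and Cavin2. Nearness was the root mean square difference of log2(FPKM + 1) after each gene's mean was removed, among 11747 genes. It was 0.335 for Thbd, which encodes thrombomodulin, 0.338 for Cyp1b1, a cytochrome P450, and 0.347 for Cavin2, a caveola protein. The Vgll3 values themselves lay 1.162 from their mean by the same measure. All 3 neighbours were lowest in R3-Cntl DZ library 1, at 2.4 FPKM for Thbd, 4.13 for Cyp1b1 and 0.13 for Cavin2. In the other 2 R3-Cntl DZ libraries Thbd was at 25.11 and 16.15, and in R3-cKO DZ at 32.44, 41.09 and 44.11. No test is given for genes chosen by their likeness to Vgll3.

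**Figure D4:**
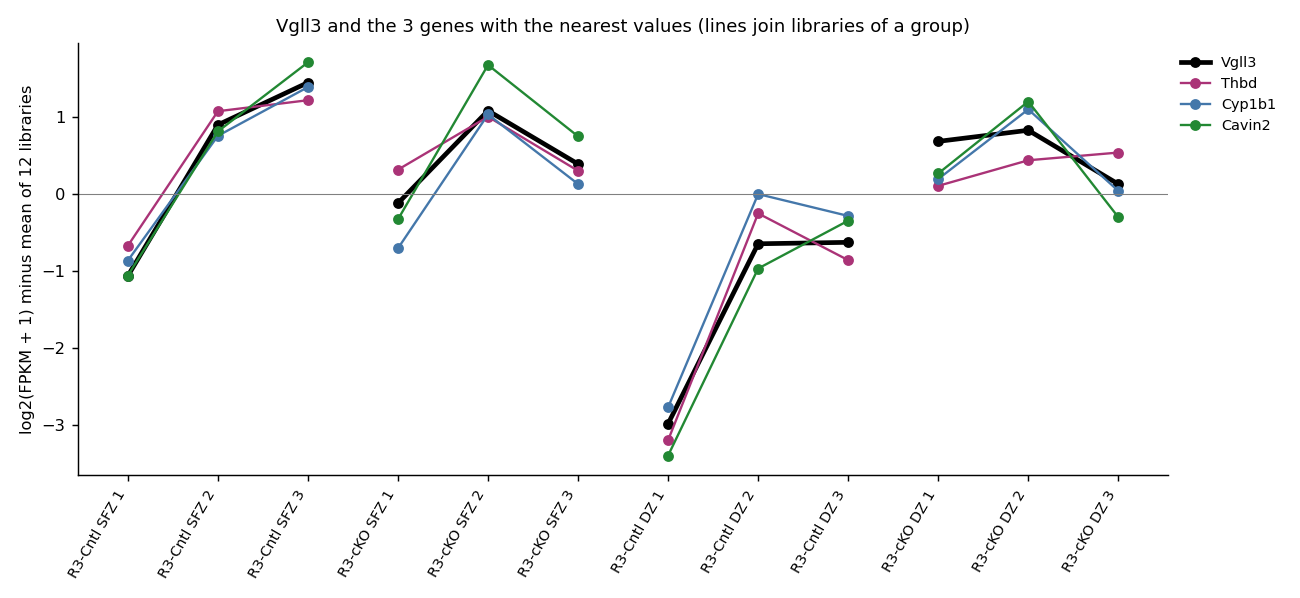
log2(FPKM + 1) minus the mean over 12 libraries (vertical axis) for Vgll3 and its 3 nearest genes in each library; lines join the libraries of a group. All 4 genes have their lowest point in R3-Cntl DZ library 1, and libraries 2 of R3-cKO are above the mean in both zones.

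Lats2, Amotl2 and Ankrd1 are known targets of YAP and TAZ, and Lats2 and Amotl2 also act on them within the pathway. Lats2, the kinase that phosphorylates YAP and TAZ, lies at mm9 chr14:58260914-58377225 on the minus strand (Entrez gene 50523). It was at 21.89, 27.22 and 24.52 FPKM in R3-Cntl SFZ, at 21.76, 29.57 and 19.71 in R3-cKO SFZ, at 16.92, 19.85 and 13.61 in R3-Cntl DZ and at 26.31, 29.52 and 17.26 in R3-cKO DZ. R3-Cntl DZ lay below all of R3-Cntl SFZ, as 26.5% of the genes did between those groups, while the genotypes overlapped in DZ. The DZ genotype difference was 0.49 (SE 0.23, adjusted p = 0.999), with same-number ratios of 1.55, 1.49 and 1.27. The block on the number gave an adjusted p of 0.156. The zone difference was -0.25 (adjusted p = 0.299).

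Amotl2, an angiomotin family protein that binds YAP at cell junctions, lies at mm9 chr9:102619002-102635748 on the plus strand (Entrez gene 56332). It was at 70.87, 89.29 and 86.31 FPKM in R3-Cntl SFZ, at 63.31, 108.01 and 45.14 in R3-cKO SFZ, at 64.87, 76.18 and 56.05 in R3-Cntl DZ and at 81.16, 111.40 and 58.64 in R3-cKO DZ. In every group but R3-Cntl SFZ, library 2 was highest and library 3 lowest. The zone difference was -0.03 (95% interval -0.52 to 0.46, adjusted p = 0.929), and its sign turned with size factors (0.13) and with quantile normalization (0.06). The genotype difference was -0.27 in SFZ and 0.31 in DZ, with adjusted p of 1.0 and 0.999, and the latter was 0.08 to 0.54 with 1 library left out.

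Ankrd1, a muscle ankyrin repeat protein often used as a readout of YAP and TAZ, was close to 0 in most libraries (Entrez gene 107765, mm9 chr19:36186455-36194334, minus strand). It was at 0.15, 1.78 and 0.92 FPKM in R3-Cntl SFZ, at 0.08, 0.91 and 0.15 in R3-cKO SFZ, at 0.00, 0.08 and 0.04 in R3-Cntl DZ and at 0.28, 0.55 and 0.02 in R3-cKO DZ. Only 1 library reached 1 FPKM, so the gene was not tested in the main comparisons. With no filter its zone difference was -0.45 (SE 0.24, adjusted p = 0.229). The highest value was in R3-Cntl SFZ library 2, which also held the muscle genes Actc1 (49.45 FPKM), Myl1 (31.74) and Myh3 (10.62), and their part in it was not tested. R3-cKO SFZ library 2, at 0.91, had a muscle sum of 13.4. The genes with the nearest values to Ankrd1 were Ier2 (0.192), Zfp36 (0.197) and Mob3a (0.204), where the values of Ankrd1 lay 0.451 from their mean. Ier2 and Zfp36 are immediate early genes.

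Of a wider list of 22 YAP and TAZ target genes, which includes Amotl2, Ankrd1 and Lats2, 21 passed the filter over both zones. Between DZ and SFZ, 2 of the 21 rose and 4 fell past the threshold, where 4.3% of all genes rose and 18.9% fell, so that the falls were near the share over all genes. The median was -0.31 beside -0.14 for all genes. With size factors the counts were again 2 and 4, where 8.95% of all genes rose and 9.25% fell, and the median was -0.15 beside 0.00. Ccn2 (Ctgf), a matricellular protein and frequent YAP readout, was at 235.02 to 638.85 FPKM in SFZ and at 752.27 to 1150.43 in DZ, with no overlap, and rose by 1.22 (SE 0.23, adjusted p = 0.00505). In that direction 1.64% of all genes did not overlap. Nt5e, the ectonucleotidase CD73, rose by 0.74 (adjusted p = 0.0445). Ccn1 (Cyr61), the other matricellular target, was at 106.37 to 448.60 FPKM in SFZ and at 172.29 to 521.53 in DZ and differed by 0.25 (SE 0.41, adjusted p = 0.696).

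The targets that fell in DZ were Igfbp3, Rbms3, Asap1 and Myof. Igfbp3, which binds insulin-like growth factors, was at 8.69 to 115.03 FPKM in SFZ and at 0.19 to 1.85 in DZ (-3.39, SE 0.57, adjusted p = 0.00294). Rbms3, an RNA-binding protein, was at 4.84 to 9.85 and at 0.23 to 1.58 (-2.03, adjusted p = 0.000344). Asap1, which acts on the Arf GTPases, was at -1.17 (adjusted p = 0.00359) and Myof, a ferlin of the plasma membrane, at -0.93 (adjusted p = 0.0218). The fibroblast and tendon sum given above was also lower in DZ, and its part in these falls was not tested. That sum and Igfbp3 were both highest in R3-cKO SFZ library 3 and next in R3-Cntl SFZ library 2, while Myof was highest in R3-Cntl SFZ library 3. Ctgf, Igfbp3 and Asap1 each kept their call in 19 of 21 alternatives and Rbms3 in 19 of 20, with the highest adjusted p among them 0.185. Ctgf, Igfbp3 and Asap1 lost it in the fits of 6 libraries of either genotype alone and Rbms3 in R3-cKO libraries alone (adjusted p = 0.0736). Myof kept its call in 17 of 21, with an adjusted p of up to 0.534, and Nt5e in 9 of 21.

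Between genotypes, 0 of the 20 targets tested in SFZ and 0 of the 19 tested in DZ passed the threshold. In DZ, 16 of the 19 differences were above 0, with a median of 0.25 beside 0.05 for all genes. In SFZ, 9 of 20 were above 0, with a median of -0.03 beside -0.01. In DZ, Ctgf was at 752.27 to 1150.43 FPKM in R3-Cntl and at 1006.86 to 1047.83 in R3-cKO, and its difference was 0.25 (95% interval -0.24 to 0.74). Cyr61 differed by 0.52 (-0.33 to 1.37) there.

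**Figure D5:**
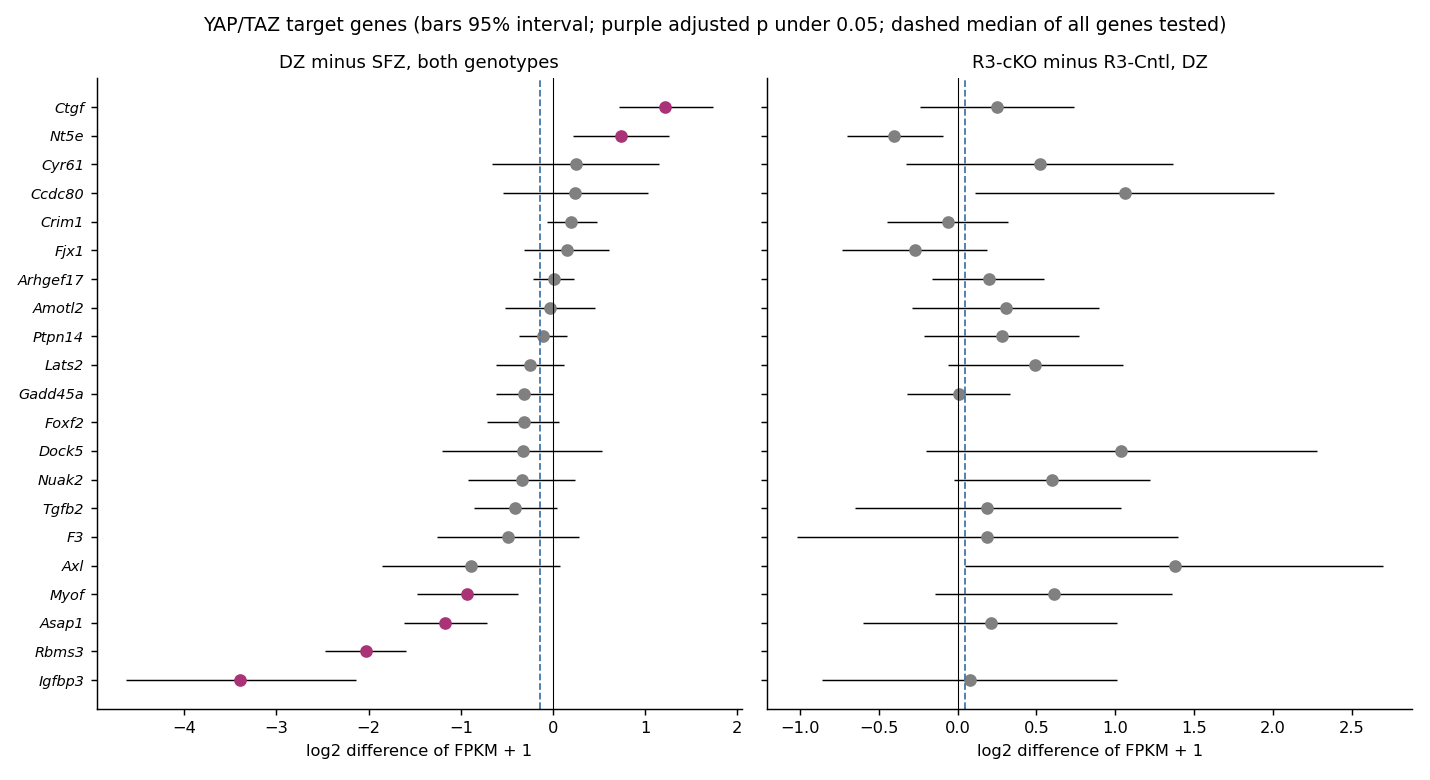
log2 differences of FPKM + 1 (horizontal axes) of the YAP and TAZ target genes that passed the filter, for DZ minus SFZ and for R3-cKO minus R3-Cntl in DZ; bars are 95% intervals, purple marks an adjusted p under 0.05 and the dashed line is the median of all genes tested. Ctgf and Nt5e lie to the right and Igfbp3, Rbms3, Asap1 and Myof to the left in the zone panel, and no gene is purple between genotypes.

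Of 27 genes that act before YAP and TAZ in the Hippo pathway, Lats2 and Amotl2 included, all were tested, and between DZ and SFZ 0 rose and 5 fell, near the 18.9% of all genes that fell, with a median of -0.22 beside -0.14. With the replicate block 11 fell, where 26.9% of all genes did. With size factors 1 rose and 2 fell, beside 8.95% and 9.25% of all genes, the riser being the kinase MST1 (Stk4, 0.27, adjusted p = 0.0259), named after its value was seen. Fat4 and Dchs1, giant cadherins that bind each other between cells, fell by 1.62 (SE 0.41, adjusted p = 0.0175) and 0.92 (adjusted p = 0.022). Dchs1 kept its call in 15 of 20 alternatives, and lost it with quantile normalization (adjusted p = 0.0864), without R3-Cntl SFZ library 2 (0.0543), without R3-cKO DZ library 1 (0.0508) and in the libraries of either genotype alone. Fat4 was at 7.5 to 29.34 FPKM in SFZ and at 0.38 to 7.63 in DZ. It was highest in R3-cKO SFZ library 3 and next in R3-Cntl SFZ library 2, as was the fibroblast and tendon sum. That sum was lower in DZ too, and its part in the falls of this list was not tested. The LIM protein Wtip fell by 0.32 (adjusted p = 0.0121) and lost the call with size factors (adjusted p = 0.188). Stk3, the kinase MST2, was at -0.23 (adjusted p = 0.0306), or -0.09 from the median of all genes, and at an adjusted p of 0.414 with size factors. Between genotypes 0 of the 27 passed in either zone, and 21 of the 27 DZ differences were above 0, with a median of 0.15 beside 0.05. The number above 0 was 17 with size factors and 16 with quantile normalization.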

How the data were processed

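RNA-seq of 12 chondrocyte libraries, 3 per zone and genotype, was used. The authors sequenced paired-end reads of 100 bases, mapped them to mm9 (Bowtie 0.12.2 in the submitters' processing notes) and deposited 1 value per gene and library. These deposited values were read as FPKM, a unit that was inferred. The file names TMM scaling, the values are linear decimals down to 0.01, and over 72 ribosomal protein genes they hardly changed with transcript length (log2 slope -0.059). Summed FPKM was 392241 to 429213 per library. The paper names quantile normalization and log2 CPM, and the values do not carry these. Counts were not used here, so depth is unknown.

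Values were analysed as log2(FPKM + 1) in limma 3.58.1 (R 4.3.3), with empirical Bayes moderation, a mean-variance trend and Benjamini-Hochberg adjustment over all genes that reached 1 FPKM in 3 or more of the libraries fitted. Genotypes were compared within each zone, zones over 12 libraries with genotype as a term, and genotype effects between zones as an interaction. The Wwtr1 to Yap1 ratio and the Tead shares were compared by exact permutation in Python 3.11.15. The fits were tested on simulated data, and the outcome of that check is not reported here. Members and lists were chosen with earlier results of these data known. All members, Runx3, Ctgf and Cyr61, called list genes (up to 4 per list and direction), the leading cell type markers and the 3 genes nearest to Vgll3 and Ankrd1 were named, and other genes of the lists only by count. Alternatives were pseudocounts of 0.1 and 5, no filter, a mean of at least 10 FPKM, quantile normalization, size factors, a replicate block, zones within each genotype alone and each library left out.

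Libraries of the same number were compared after removal of group means, over 11359 genes. Between the genotypes of DZ their correlations were 0.653, 0.781 and 0.687, and the supplement names 3 individual littermates. The number was therefore taken to pair the DZ libraries in the fit with the replicate block, while the main fit of DZ left this pairing out. The lowest adjusted p over all genes in limma was 0.999 in the main fit of DZ and 0.0587 with the block. In SFZ the correlations of the same number were 0.787, -0.094 and -0.415, and the number was not taken to pair these. Between zones they were 0.418, 0.781 and 0.653 in R3-cKO and 0.575, 0.111 and -0.151 in R3-Cntl. Some libraries of different number were also alike. R3-Cntl SFZ library 3 was at 0.688 with R3-cKO SFZ library 2 and at 0.58 with R3-Cntl DZ library 2. R3-Cntl SFZ library 2 was at 0.449 with R3-cKO SFZ library 3 and at 0.38 with R3-Cntl DZ library 3. No fit with these pairings was run. Proteins were not used here, and 1 gene that the naming rule covers is not reported here.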

Additional observations from a re-analysis of the deposited data

How the results depend on the processing

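Genotype calls were 0 in SFZ, in DZ and for the interaction under every alternative run, and no alternative gave a tested member an adjusted p under 0.05 there. The replicate block raised the unadjusted calls of DZ from 404 to 1830 and of the interaction from 99 to 949, and gave 51 in place of 34 in SFZ. With each library left out they were 12 to 1204 in SFZ and 36 to 714 for the interaction, both highest without R3-cKO SFZ library 2 and lowest without R3-cKO SFZ library 3 and R3-Cntl SFZ library 2, and 211 to 773 in DZ, lowest without R3-cKO DZ library 2 and highest without library 3. Without the filter, unadjusted calls were 143 in SFZ, 696 in DZ and 252 for the interaction. The zone calls, 2725 in all, were 1162 with a mean of at least 10 FPKM, 140 in R3-Cntl libraries alone, 2 in R3-cKO libraries alone, 3965 with the replicate block and 1624 to 2899 with each library left out, the lowest without R3-Cntl SFZ library 2. Smaller designs and fewer genes tested enter the first 3 of these, and the cause of the last was not tested. Size factors moved the median of all genes from -0.141 to 0.002 between the zones.

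The Wwtr1 to Yap1 difference was 0.27 to 0.44 with each library left out. For the Tead shares these ranges were 0.329 to 3.3 points for Tead1, -10.2 to -6.56 for Tead2, -3.39 to -0.125 for Tead3 and 6.12 to 9.86 for Tead4. With the replicate block (exact sign flips), the Tead2 share at -8.0 and the Tead4 share at 7.51 had p = 0.0625 each. The Wwtr1 to Yap1 difference had exact p = 0.03125 there, the smallest that 64 sign flips can give, with 6 of 6 pairs higher in DZ. Between zones the correlations did not show the numbers to pair the R3-Cntl libraries, and the block added 1 member to the zone calls, Tead1 at -0.42 (adjusted p = 0.0303).

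Signs turned for values far from the threshold. Wwtr1 in SFZ was at 0.00 with quantile normalization and 0.01 with size factors, Vgll3 in SFZ at -0.04 with a pseudocount of 5 and Yap1 in DZ at -0.01 with quantile normalization. Between zones Amotl2 was at 0.06 with quantile normalization, 0.13 with size factors and 0.26 in R3-cKO libraries alone, where Lats2 was at 0.03. With each library left out, genotype differences in SFZ ran from -0.03 to 0.06 for Yap1, -0.1 to 0.11 for Wwtr1, -0.11 to 0.22 for Tead3, -0.81 to 0.23 for Tead4, -0.72 to 0.53 for Vgll3, -0.6 to 0.02 for Amotl2 and -0.23 to 0.05 for Lats2. Yap1 ran from -0.08 to 0.17 in DZ and Amotl2 from -0.19 to 0.08 between zones. Quantile normalization gave 0.29 for Wwtr1, -0.77 for Tead2 (adjusted p = 0.0541) and -0.34 for Tead3 (adjusted p = 0.117) between zones. Tead3 was at -0.74 in R3-Cntl and -0.35 in R3-cKO libraries alone (adjusted p = 0.127 and 0.327). Of 470 alternative values of 29 member results, 422 kept both direction and side of the threshold. Depth is unknown, and 3 libraries per group set the precision.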
